A study of Mus musculus with 16 samples.

Results

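The response of macrophages to a BRD9 inhibitor in the absence of RANKL was examined by RNA sequencing in 8 libraries. Of these, 4 were of cells cultured with M-CSF and iBRD9 (M + iBRD9) and 4 of control cells cultured with M-CSF (M + vector). They were taken, by their labels, from a series of 16 libraries, and no measured value was used to choose them. All cells were mouse bone marrow-derived monocytes (BMDMs) of C57BL/6 mice, flushed from tibias and femurs, and all received M-CSF at 50 ng/ml. Vector is the study's name for the control treatment. The treatment labels of the M + vector libraries name M-CSF alone and do not say whether a vehicle was added. The other 8 libraries, 4 of MR + iBRD9 and 4 of MR + vector, were of the same cells with RANKL at 100 ng/ml in addition and are used here to set the response without RANKL beside the response with it. The dose of iBRD9 and the time of treatment behind the libraries without RANKL are not given in the labels, and no inactive analogue or second inhibitor was among the samples. Replicates 1 to 4 of a group are not described as separate cultures or separate animals. The p-values below therefore measure the spread between these libraries, which may be technical.

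BRD9 is a bromodomain protein, a reader of acetylated lysine, and a defining subunit of the non-canonical BAF complex (ncBAF), which slides and evicts nucleosomes with the ATPase BRG1 or BRM. iBRD9 occupies the acetyl-lysine pocket of the protein. M-CSF acts through its receptor CSF1R, drives the MAP kinase cascade and keeps cells of the macrophage lineage alive, and it is the only cytokine added in these cultures. Resting macrophages also run a low, tonic type I interferon loop. Interferon-beta engages its receptor, and the complex ISGF3, with its subunits STAT2 and IRF9, binds interferon-stimulated response elements (ISREs). The resulting interferon-stimulated genes include IRF7 and the pattern recognition receptors that feed the loop.

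Total counts were 16663588 to 18987926 in M + iBRD9 and 16868844 to 18377070 in M + vector, and mitochondrial genes took 1.70% to 1.93% of the counts in these 8 libraries. The markers of macrophages were present in all of them, the 10 lineage genes summing to 23622 to 26548 CPM (read counts scaled to library size with TMM factors) in M + iBRD9 and 23037 to 24717 CPM in M + vector. In a principal component analysis of the 8 libraries, the first component (22.2% of the variance) separated the groups, at 1.57 to 17.8 in M + iBRD9 and -16.8 to -6.77 in M + vector. The second (15.8%) set M + iBRD9 replicate 4 apart, at -21.6 against -6.19 to 9.97 in the other 7 libraries. In that library genes with long transcripts read lower and genes with short transcripts higher than in the group median, and in M + iBRD9 replicate 1 the reverse. Genes called higher had a median GC content of 52.1% and a median transcript length of 3829 bases, genes called lower 47.0% and 4885 bases, and all genes with a value 49.1% and 4405 bases. The part of base composition and length in the response was not tested further than by a correction given in the closing section, under which 682 of the 787 calls below stood.

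Sequences of a few promoters are shown first, because interferon-stimulated, sterol and lysosomal genes recur in the results below. Windows of 300 bases, 250 before to 50 after the annotated start, came from RefSeq on build GRCm38.p6, not the build of the counts (GRCm39), and 9314 of the 11559 genes tested matched a window by symbol, with 9313 distinct symbols. The ISRE core searched was GAAANNGAA on either strand (TTCNNTTTC on the other), which 8.90% of the tested genes with a window held. Of 64 interferon-stimulated genes with a window, 35 held it (54.7%), among them 16 of 26 called lower by iBRD9 (61.5%) and 19 of 38 not called (50.0%). In these counts, here and below, a gene with more than 1 window held the letters if any of its windows did. Capitals mark the matches in genes called lower, ISG15, a ubiquitin-like modifier, IFIT1, a binder of viral RNA, and STAT2, a subunit of ISGF3.
Isg15 (chr4:156200851-156200921, minus strand): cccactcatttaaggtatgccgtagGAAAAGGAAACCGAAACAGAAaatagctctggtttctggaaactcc
Ifit1 (chr19:34640755-34640838, plus strand): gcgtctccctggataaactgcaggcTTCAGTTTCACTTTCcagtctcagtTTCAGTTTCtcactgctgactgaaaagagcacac
Stat2 (chr10:128270252-128270310, plus strand): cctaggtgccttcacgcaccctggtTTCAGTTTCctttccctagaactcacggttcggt
In Isg15 and Ifit1 3 matches, some overlapping, lay 57 to 78 and 75 to 109 bases before the start, and in Stat2 1 match. In Slfn4, Irf7, Oasl1 and Cgas, also called lower, the 250 bases before the start did not hold these letters. The 50 bases after the start were not read for these single genes. A match is a description of letters and not of a bound site.

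For the sterol genes the letters searched were those of the sterol regulatory element, TCACNCCAC, on either strand, held by 1.36% of the tested genes with a window. Of 20 sterol genes with a window only Hmgcs1, the synthase of the first committed steps of cholesterol synthesis and called lower, held them. For the lysosomal genes the letters were CACGTG, the E-box within the element bound by TFEB and its relatives and also the core bound by MYC and MAX, which reads the same on both strands and stood in 11.9% of the tested genes with a window. Of 40 lysosomal genes with a window, 14 held it (35.0%), among them 7 of 11 called higher by iBRD9 (63.6%), 0 of 3 called lower and 7 of 26 not called (26.9%). Capitals mark the matches in Hmgcs1 and in 3 lysosomal genes called higher: Lamp1, a protein of the lysosomal membrane, Atp6v0b, a subunit of the proton pump, and Mcoln1, a calcium channel.
Hmgcs1 (chr13:119690189-119690247, plus strand): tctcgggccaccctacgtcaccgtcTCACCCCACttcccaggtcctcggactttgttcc
Lamp1 (chr8:13159075-13159160, plus strand): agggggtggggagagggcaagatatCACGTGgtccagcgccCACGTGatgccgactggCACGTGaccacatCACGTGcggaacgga
Atp6v0b (chr4:117887330-117887390, minus strand): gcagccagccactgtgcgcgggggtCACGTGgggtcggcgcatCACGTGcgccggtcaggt
Mcoln1 (chr8:3500423-3500504, plus strand): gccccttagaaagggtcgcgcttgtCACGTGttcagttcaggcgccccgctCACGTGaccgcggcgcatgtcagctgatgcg

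iBRD9 changed many genes in macrophages cultured without RANKL, most of them by little. Of 11559 genes tested, 787 were called (6.81%), 356 higher (3.08%) and 431 lower (3.73%), by the quasi-likelihood test of edgeR with Benjamini-Hochberg adjustment, two-sided, at an adjusted p below 0.05. Every adjusted p below comes from this test, and every change is a log2 difference, M + iBRD9 minus M + vector, with its SE. Counts of list members called higher or lower below are to be read beside the 3.08% and 3.73% of all genes. The median size of a called change was 1.19-fold. A change of at least 1.5-fold was reached by 16 genes called higher and 35 called lower, and of at least 2-fold by 5 and 7. The libraries of the groups did not overlap in 259 of the 356 genes called higher and in 330 of the 431 called lower, where 4.75% of all tested genes lay wholly higher and 5.34% wholly lower. When each of the 16 libraries was left out in turn, 463 to 1104 genes were called, and 120 of the 356 and 203 of the 431 were called every time. The count was 463 without M + iBRD9 replicate 2, 483 without M + vector replicate 4, 511 without M + vector replicate 3 and 1104 without M + iBRD9 replicate 4, and it was 452 when only the 8 libraries without RANKL were fitted.

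No subunit of the BAF complexes was called with all libraries in the fit. Brd9 itself (ENSMUSG00000057649, chromosome 13, 74085930 to 74109014, GRCm39) stood at 56.2, 57.5, 52.9 and 55.1 CPM in M + iBRD9, against 57.6, 56.0, 57.0 and 52.3 CPM in M + vector, a difference of -0.01 ± 0.06, adjusted p = 0.96. The libraries of the groups overlapped fully. An inhibitor of the protein need not change the transcript, and the level does not test whether the treatment worked. Among 28 tested subunits and BET proteins the changes ran between -0.14 and 0.22. The only gene called was Brd2 (0.22 ± 0.04, adjusted p = 0.0011), a BET family bromodomain protein outside the complexes, while 3 were called higher without M + iBRD9 replicate 1 and 1 lower without M + iBRD9 replicate 4. It stood at 283 ± 16.3 CPM in M + iBRD9 and 244 ± 9.61 CPM in M + vector (SD, n = 4 each). The ncBAF subunits Bicra (0.14 ± 0.12, adjusted p = 0.55) and Bicral (0.22 ± 0.08, adjusted p = 0.099) were not called.

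Large falls lay among the receptors that steer monocytes toward inflammatory chemokines. Ccr2, the receptor for CCL2 that takes monocytes out of the marrow and into tissue (ENSMUSG00000049103, chromosome 9, 123901987 to 123913594, GRCm39), had 31.2, 37.5, 32.3 and 28.9 CPM in M + iBRD9, against 54.1, 50.2, 53.4 and 59.3 CPM in M + vector. Every M + iBRD9 library stood below every M + vector library, and the gene fell by 1.67-fold (-0.74 ± 0.08, adjusted p = 2.1e-07). Ccr3, the eotaxin receptor (chromosome 9, 123822009 to 123831726), was a low gene with 3.92, 3.03, 4.17 and 5.24 CPM in M + iBRD9, against 12.3, 8.37, 9.06 and 11.8 CPM in M + vector. It also fell without overlap (-1.34 ± 0.18, adjusted p = 1.3e-05).

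Ccr2 and Ccr3 lie in 1 cluster on chromosome 9. Ccr1, in the same cluster (123762161 to 123768729), differed by -0.22 ± 0.08, adjusted p = 0.082. It was past the threshold without the filter on low counts (adjusted p = 0.023), with the replicate number as a block (adjusted p = 0.035), and without M + vector replicate 1 or M + iBRD9 replicate 4. Fyco1, a neighbouring gene of vesicle transport, differed by 0.03 ± 0.07, adjusted p = 0.85. Genes of this cluster include close copies, and reads that could not be told apart between them may have been split. Of 14 tested chemokine and chemoattractant receptors, 3 fell and 3 rose (5 fell without M + vector replicate 2 or without M + iBRD9 replicate 4). The risers were Cxcr3, a receptor of interferon-induced chemokines (0.56 ± 0.12, adjusted p = 0.0044), the anaphylatoxin receptor C3ar1 (0.17 ± 0.04, adjusted p = 0.0024) and Cxcr4, the CXCL12 receptor (0.45 ± 0.12, adjusted p = 0.019). The call of Cxcr4 was lost without M + vector replicate 3, M + vector replicate 4 or M + iBRD9 replicate 2, with an adjusted p of up to 0.12. It was also lost in DESeq2 (adjusted p = 0.094). Ccr2 is also the called member of the monocyte markers, whose summed level was 81.4 to 105.0 CPM in M + iBRD9 and 108.4 to 119.5 CPM in M + vector, with 1 of 11 tested called and none at 0. Ccr3 is the called member of the eosinophil markers, 5.34 to 7.02 CPM in M + iBRD9 and 10.04 to 13.96 CPM in M + vector, with 1 of 3 tested called. Each of these sums includes the called gene itself. Among the tested monocyte markers 4 changes were positive and 7 negative, with a median of -0.05. Among the tested eosinophil markers 2 were positive and 1 negative, with a median of 0.26. In bulk RNA fewer cells of a kind and less RNA per cell cannot be told apart, and the part of cell mixture in these falls was not tested.

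**Figure D1:**
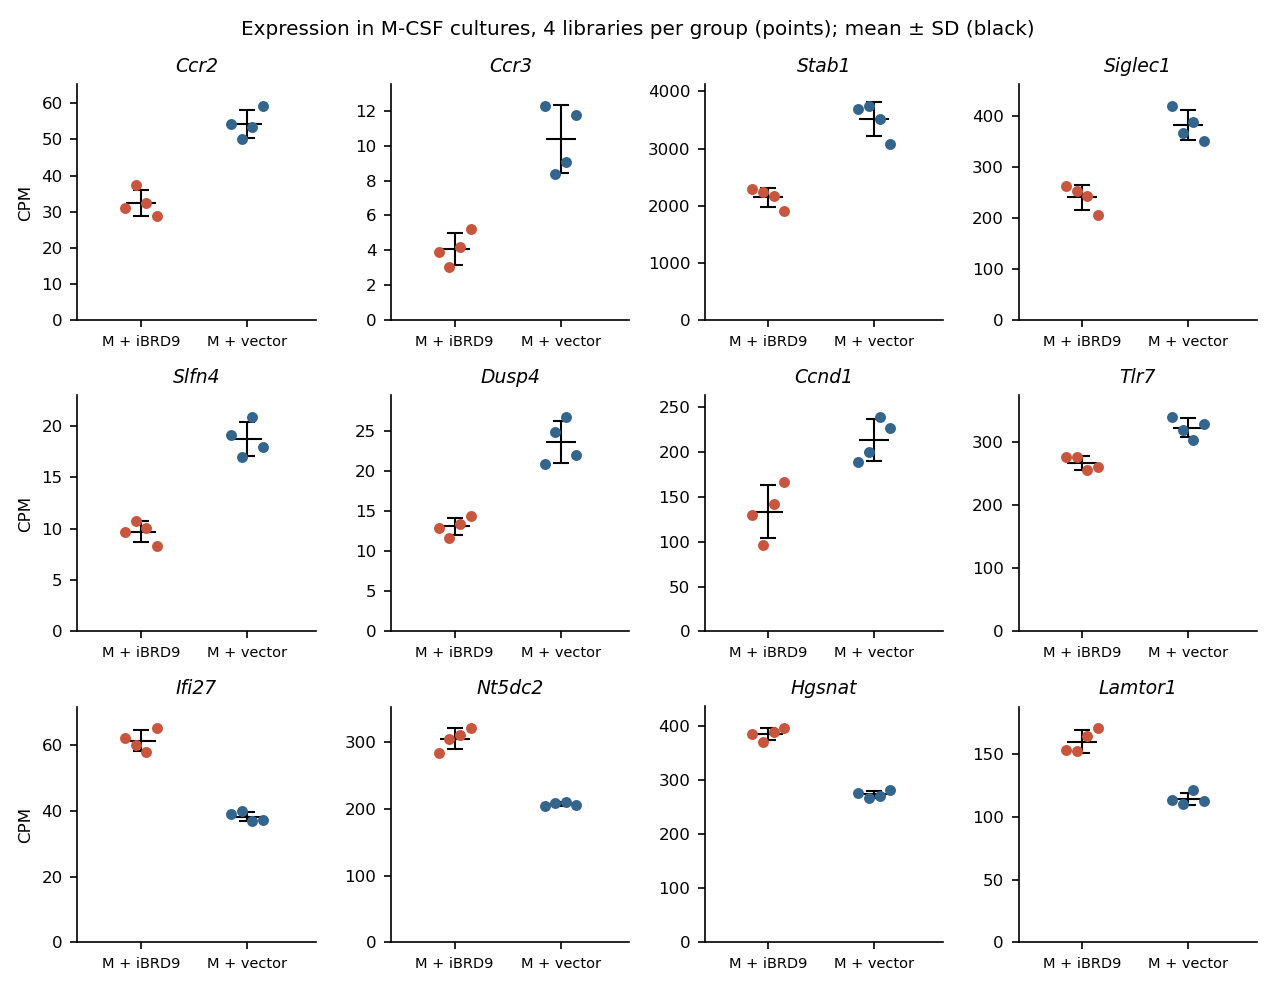
Read counts scaled to library size (CPM, with TMM factors, linear axis from 0) of 12 genes in each of the 4 M + iBRD9 libraries (left in each panel) and the 4 M + vector libraries (right), with the mean and SD as a bar and whisker. The 4 values of each treatment lie on separate sides in all 12 panels, with Ccr2, Ccr3, Stab1, Siglec1, Slfn4, Dusp4, Ccnd1 and Tlr7 lower and Ifi27, Nt5dc2, Hgsnat and Lamtor1 higher in M + iBRD9.

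Some chemokine and cytokine genes fell as well, without a shift of their list. Of 29 tested, 5 fell (17.2%, against 3.73% of all genes) and none rose. The median change was -0.01, with 14 changes positive and 15 negative. The count was 3 falls without M + vector replicate 4, M + iBRD9 replicate 1 or M + iBRD9 replicate 3, and 1 rose without M + vector replicate 3 or M + iBRD9 replicate 4. Ccl7, a ligand of CCR2, had 20.4, 18.4, 23.8 and 34.4 CPM in M + iBRD9, against 37.4, 39.0, 54.5 and 53.2 CPM in M + vector. It fell by 1.90-fold (-0.92 ± 0.19, adjusted p = 0.0019), with a wide spread in both groups. Spp1, the matrix protein osteopontin and one of the most abundant transcripts of these cells, fell by less, at 4192 ± 256 CPM in M + iBRD9 and 5112 ± 93.4 CPM in M + vector (SD, n = 4 each; -0.29 ± 0.03, adjusted p = 1.4e-06). Il1rn, the interleukin-1 receptor antagonist, fell (-0.53 ± 0.09, adjusted p = 2.4e-04). The inflammatory cytokine gene Tnf differed by -0.40 ± 0.15, adjusted p = 0.12 and was not called. It was past the threshold without the filter on low counts (adjusted p = 0.011), after correction for GC content and length (adjusted p = 0.049), with the replicate number as a block (adjusted p = 0.049), with both of the last (adjusted p = 0.018) and without M + vector replicate 1.

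Interferon-stimulated genes fell as a group of many small changes. Of 80 tested members, 32 fell, where 3.73% of all genes did, and 1 rose. The median change was -0.18, against 0.0025 over all genes tested. The fall count ran from 24 to 42 as libraries were left out, and was 31 without M + iBRD9 replicate 4 and 34 after correction for GC content and length. The list was written with the earlier results of these libraries known and is no independent evidence of its direction. Members that fell included the transcription factors of the loop: Stat2 (-0.29 ± 0.05, adjusted p = 1.8e-04) and Irf7 (-0.27 ± 0.07, adjusted p = 0.012). Irf9, of the same complex as STAT2, differed by 0.08 ± 0.05, adjusted p = 0.43.

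Slfn4, a myeloid Schlafen gene, showed the clearest fall of the antiviral genes, with 9.70, 10.8, 10.0 and 8.31 CPM in M + iBRD9, against 19.1, 16.9, 20.9 and 17.97 CPM in M + vector. The groups did not overlap and the gene fell by 1.93-fold (-0.95 ± 0.10, adjusted p = 1.3e-07). Schlafen genes are a family of close copies, as are the Ly6 and Ifi200 genes, so single members are uncertain. Ly6a, which encodes Sca-1, was at 2.41, 3.71, 4.79 and 4.64 CPM in M + iBRD9, against 10.2, 8.49, 10.3 and 9.82 CPM in M + vector, a fall of 2.48-fold at a low level (-1.31 ± 0.16, adjusted p = 2.7e-06). Isg15 had 19.8, 21.96, 20.3 and 18.2 CPM in M + iBRD9, against 24.9, 28.9, 23.3 and 30.8 CPM in M + vector, without overlap (-0.43 ± 0.08, adjusted p = 0.0017). Ifit1 had 19.0, 25.1, 18.3 and 21.4 CPM in M + iBRD9, against 27.9, 28.6, 27.3 and 28.8 CPM in M + vector (-0.42 ± 0.09, adjusted p = 0.002). Oasl1, of the oligoadenylate synthetase family (-0.45 ± 0.09, adjusted p = 0.0012), and its relative Oas3 (-0.33 ± 0.05, adjusted p = 2.1e-04) also fell. So did the Z-form nucleic acid sensor gene Zbp1 (-0.35 ± 0.08, adjusted p = 0.007) and the DNA sensor family member Ifi211 (-0.49 ± 0.07, adjusted p = 3.6e-05). Phf11d (-0.40 ± 0.07, adjusted p = 7.3e-04) and the antiviral membrane protein gene Ifitm3 (-0.28 ± 0.05, adjusted p = 2.1e-04) fell as well. The interferon-gamma-inducible GTPases gave 3 falls and no rise among 15 tested, with Tgtp2 (-0.73 ± 0.14, adjusted p = 8.4e-04) and Irgm1 (-0.28 ± 0.06, adjusted p = 0.0034) as the ones of smallest p.

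Against the direction of the list, Ifi27, an interferon-stimulated gene of the mitochondrial and nuclear membranes, rose. It had 62.2, 59.9, 57.9 and 65.2 CPM in M + iBRD9, against 39.0, 39.9, 36.9 and 37.1 CPM in M + vector, with no overlap, a rise of 1.60-fold (0.68 ± 0.06, adjusted p = 6.4e-09). The call stood whichever library was left out.

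**Figure D2:**
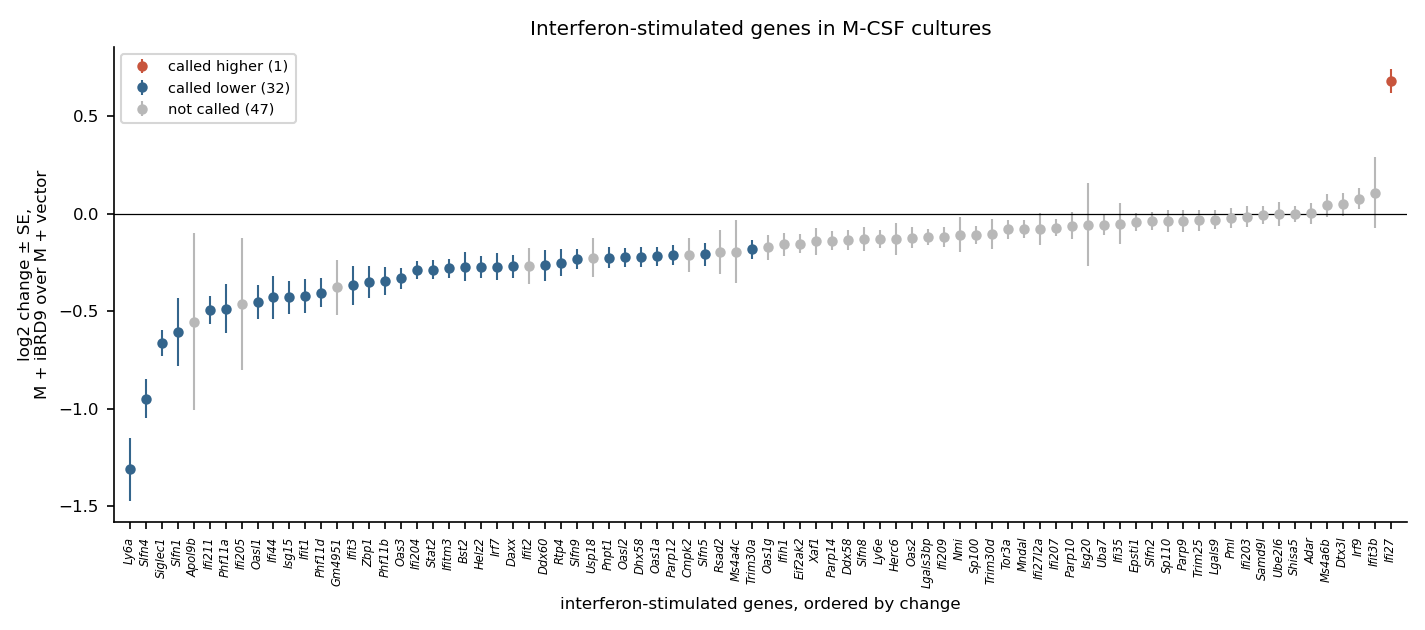
Change (log2, M + iBRD9 minus M + vector, point ± SE) of the 80 tested interferon-stimulated genes, in order of size. Of these, 32 were called lower, 1 (Ifi27) higher and 47 were not called.

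The receptors that feed the interferon loop moved in both directions. Of 30 tested genes of interferon receptors, signal transducers and nucleic acid sensors, 4 rose and 4 fell. Tlr7 and Tlr8 are endosomal receptors of single-stranded RNA encoded side by side on chromosome X, and they moved apart. Tlr7 had 277, 277, 255 and 260.4 CPM in M + iBRD9, against 339.9, 319, 304 and 328 CPM in M + vector and fell (-0.27 ± 0.05, adjusted p = 4.6e-04). Tlr8 had 203, 197, 184 and 194 CPM in M + iBRD9, against 169, 161, 151 and 173 CPM in M + vector and rose (0.25 ± 0.05, adjusted p = 0.0043). Neither gene had overlapping groups. Tlr9, the receptor of unmethylated DNA (0.38 ± 0.09, adjusted p = 0.0054), and Unc93b1, the chaperone that takes these receptors to endosomes (0.15 ± 0.03, adjusted p = 0.0069), rose too. Ifngr2, a chain of the interferon-gamma receptor, rose as well (0.20 ± 0.05, adjusted p = 0.0046). The DNA sensor gene Cgas fell (-0.30 ± 0.07, adjusted p = 0.0049), with 30.2, 28.0, 29.6 and 29.7 CPM in M + iBRD9, against 33.5, 35.2, 37.5 and 38.6 CPM in M + vector.

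Genes of the macrophage surface moved in both directions. Of 37 tested macrophage identity genes 8 rose and 3 fell, and only 4 or 5 rose without M + vector replicates 1, 2, 3 or 4 or M + iBRD9 replicates 2 or 3. The 3 falls were of Siglec1, Mrc1 and Msr1. Siglec1, the sialic acid-binding receptor CD169 and itself interferon-stimulated, had 262, 252, 243 and 206 CPM in M + iBRD9, against 419, 366, 387 and 351 CPM in M + vector and fell by 1.58-fold (-0.66 ± 0.07, adjusted p = 2.6e-08). Mrc1, the mannose receptor CD206, fell (-0.24 ± 0.04, adjusted p = 8.9e-05), at 1716 ± 90.7 CPM in M + iBRD9 and 2034 ± 65.6 CPM in M + vector (SD, n = 4 each). The scavenger receptor gene Msr1 fell (-0.21 ± 0.05, adjusted p = 0.0051). Stab1, a scavenger receptor of abundant expression that is not on the list, had 2293, 2237, 2166 and 1917 CPM in M + iBRD9, against 3693, 3745, 3517 and 3088 CPM in M + vector. It fell without overlap by 1.63-fold (-0.71 ± 0.05, adjusted p = 5.1e-12).

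Csf1r and Cd36 were among the list members that rose. Csf1r, the M-CSF receptor that these cultures depend on, had 1667, 1760.2, 1674 and 1678 CPM in M + iBRD9, against 1556, 1502, 1493 and 1489 CPM in M + vector. It rose by a small amount without overlap (0.17 ± 0.03, adjusted p = 0.0011). Cd36, a receptor for oxidized lipoprotein and fatty acids, rose at 4272 ± 218 CPM in M + iBRD9 and 3591 ± 178 CPM in M + vector (SD, n = 4 each; 0.25 ± 0.04, adjusted p = 3.9e-05). Of 21 tested complement and Fc receptor genes, 7 rose and none fell, and 4 rose without M + vector replicate 2, M + vector replicate 3 or M + iBRD9 replicate 4. Without M + vector replicate 2 or M + iBRD9 replicate 4, 1 fell. C1qa, a chain of C1q, had 401, 439, 424 and 487 CPM in M + iBRD9, against 352, 364, 362 and 368 CPM in M + vector (0.28 ± 0.05, adjusted p = 1.8e-04). The low-affinity IgG receptor gene Fcgr3 (0.22 ± 0.04, adjusted p = 4.6e-04) and Fcgrt, the heavy chain of the neonatal Fc receptor (0.23 ± 0.05, adjusted p = 0.0063), rose as well. Selenop, the secreted selenium carrier, rose, with 1704, 1879, 1583 and 1729 CPM in M + iBRD9, against 1384, 1416, 1279.7 and 1377 CPM in M + vector (0.34 ± 0.05, adjusted p = 1.9e-05). So did the iron exporter gene Slc40a1 (0.32 ± 0.04, adjusted p = 8.9e-06).

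Some targets of growth factor signalling fell. Of 40 tested immediate early genes and feedback regulators of the MAP kinase cascade, 7 fell (17.5%, against 3.73% of all genes). In the same list 2 rose (5.0%, against 3.08%) and 31 were not called, and the median change was -0.12. Dusp4, a phosphatase of nuclear ERK whose transcript follows ERK activity, had 12.9, 11.7, 13.5 and 14.4 CPM in M + iBRD9, against 21.0, 24.9, 26.8 and 21.99 CPM in M + vector. It fell without overlap by 1.80-fold (-0.85 ± 0.09, adjusted p = 2.5e-07). Ccnd1, cyclin D1, the growth factor-dependent regulator of G1, had 129.7, 95.9, 142 and 167 CPM in M + iBRD9, against 189, 199.9, 239 and 227 CPM in M + vector and fell by 1.60-fold (-0.68 ± 0.10, adjusted p = 5.2e-05). Ets2, an ERK-regulated transcription factor, had 38.6, 34.8, 50.8 and 57.3 CPM in M + iBRD9, against 62.5, 68.1, 77.0 and 69.6 CPM in M + vector (-0.61 ± 0.11, adjusted p = 4.3e-04). The ERK-responsive factor Etv5 (-0.43 ± 0.09, adjusted p = 0.0026) and the cascade inhibitor Spred2 (-0.42 ± 0.08, adjusted p = 0.002) fell also. The list was not uniform: Fos differed by -0.10 ± 0.09, adjusted p = 0.57, and the AP-1 gene Junb (0.25 ± 0.05, adjusted p = 0.0032) and the mRNA-decay factor gene Zfp36 (0.37 ± 0.05, adjusted p = 8.5e-06) rose.

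Myc and genes of ribosome production and nucleotide synthesis fell as well. Myc, the growth-promoting transcription factor, had 5.66, 4.94, 8.57 and 9.01 CPM in M + iBRD9, against 10.2, 11.3, 11.7 and 9.82 CPM in M + vector. It fell by 1.52-fold (-0.61 ± 0.17, adjusted p = 0.024), a call lost without M + vector replicate 2, M + vector replicate 3, M + iBRD9 replicate 1 or M + iBRD9 replicate 2, with an adjusted p of up to 0.11. Of 27 tested genes of the MYC network and its targets, 7 fell and 4 rose, 11 fell without M + iBRD9 replicate 4, and 0 to 2 rose without M + vector replicates 2, 3 or 4 or M + iBRD9 replicates 1, 2 or 3. Ppat, the first enzyme of purine synthesis, was among those that fell (-0.30 ± 0.07, adjusted p = 0.0034). Ctps, which makes CTP (-0.62 ± 0.14, adjusted p = 0.0043), and Cad, the first enzyme of pyrimidine synthesis (-0.33 ± 0.07, adjusted p = 0.0049), fell too. So did the transferrin receptor gene Tfrc (-0.23 ± 0.05, adjusted p = 0.002). The risers held 3 antagonists of MYC at E-boxes, Mxd4 (0.37 ± 0.10, adjusted p = 0.018), Mxi1 (0.26 ± 0.07, adjusted p = 0.027) and Mnt (0.25 ± 0.07, adjusted p = 0.017). The calls of all 3 were lost without M + vector replicate 4 or M + iBRD9 replicate 2, among others, with adjusted p of up to 0.13, 0.13 and 0.096. That of Mxd4 was also lost in DESeq2 (adjusted p = 0.118).

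Of 55 tested ribosome biogenesis genes, 12 fell and 1 rose, with a median change of -0.16. The count of falls was 6 without M + vector replicate 3, 7 without M + iBRD9 replicate 2, 20 without M + iBRD9 replicate 4 and 15 after correction for GC content and length. Nop58, a core protein of box C/D snoRNPs, had 31.9, 31.0, 30.9 and 39.5 CPM in M + iBRD9, against 43.7, 46.6, 48.4 and 46.3 CPM in M + vector, without overlap (-0.47 ± 0.07, adjusted p = 3.1e-05). Tsr1, of small subunit assembly (-0.60 ± 0.12, adjusted p = 0.0019), and Nop2, an rRNA methyltransferase (-0.34 ± 0.07, adjusted p = 0.0023), fell. The nucleolar helicase gene Ddx21 (-0.26 ± 0.05, adjusted p = 0.0019) and Polr1a, the large subunit of RNA polymerase I (-0.26 ± 0.06, adjusted p = 0.009), fell too. So did Gnl3, which encodes nucleostemin (-0.32 ± 0.08, adjusted p = 0.0092).

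Amino acid supply and protein folding genes fell in smaller steps. Of 32 tested genes of the amino acid response, 10 fell (31.25%, against 3.73% of all genes) and none rose. Slc7a1, the cationic amino acid transporter that takes up arginine and lysine, had 49.6, 47.2, 50.3 and 50.4 CPM in M + iBRD9, against 63.5, 65.4, 78.3 and 67.5 CPM in M + vector, without overlap (-0.48 ± 0.06, adjusted p = 2.2e-06). Slc7a5, the large neutral amino acid transporter (-0.53 ± 0.09, adjusted p = 4.9e-04), and Asns, asparagine synthetase (-0.35 ± 0.07, adjusted p = 0.0022), fell. Psat1 of serine synthesis (-0.29 ± 0.05, adjusted p = 8.8e-04) and Aldh18a1 of proline synthesis (-0.40 ± 0.06, adjusted p = 1.1e-04) fell too. Among 28 tested chaperone and unfolded protein response genes 7 fell and none rose. The count was 3 or 4 without M + vector replicates 3 or 4 or M + iBRD9 replicates 2 or 3. Hyou1, an endoplasmic reticulum chaperone (-0.27 ± 0.05, adjusted p = 6.2e-04), and the mitochondrial chaperone gene Hspd1 (-0.25 ± 0.05, adjusted p = 0.0023) were among them. Of 58 tested cell cycle genes 7 fell (12.1%, against 3.73% of all genes) and none rose. Among them were the replication helicase gene Mcm2 (-0.26 ± 0.05, adjusted p = 0.0021) and Hells, a chromatin remodeller of dividing cells (-0.43 ± 0.07, adjusted p = 2.0e-04). The count of these falls was 4 without M + vector replicate 3 or M + iBRD9 replicate 2 and 14 without M + iBRD9 replicate 4.

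Genes of lipid synthesis fell too. Of 28 tested sterol genes, 11 fell and none rose, a median change of -0.13, and 6 fell without M + vector replicate 4. Sqle, squalene epoxidase, had 140.2, 101, 143 and 164 CPM in M + iBRD9, against 162, 176, 177 and 175 CPM in M + vector, with overlapping groups (-0.33 ± 0.08, adjusted p = 0.007). Hmgcs1, whose promoter is printed above, had 168, 147, 175 and 173 CPM in M + iBRD9, against 194, 189, 189.9 and 195 CPM in M + vector, without overlap (-0.21 ± 0.05, adjusted p = 0.0048). Stard4, a cholesterol transporter, fell as well (-0.20 ± 0.05, adjusted p = 0.0071). Of 21 tested fatty acid synthesis genes 5 fell and 1 rose, and 3 fell without M + vector replicate 2. Fasn, fatty acid synthase (-0.30 ± 0.07, adjusted p = 0.0034), the desaturase gene Scd2 (-0.22 ± 0.04, adjusted p = 3.2e-04) and the elongase gene Elovl6 (-0.34 ± 0.08, adjusted p = 0.0062) fell. Lpin1, a phosphatidate phosphatase, rose (0.31 ± 0.07, adjusted p = 0.0036).

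Lysosomal and autophagy genes were among the risers. Of 48 tested lysosomal genes 13 rose (27.1%, against 3.08% of all genes) and 3 fell, with a median change of 0.06, and 7 or 8 rose without M + vector replicate 3, M + vector replicate 4 or M + iBRD9 replicate 2. Hgsnat, the acetyltransferase of lysosomal heparan sulfate breakdown (ENSMUSG00000037260, chromosome 8, 26434481 to 26466781, GRCm39), had 386, 371, 389 and 397 CPM in M + iBRD9, against 275, 268, 271 and 281 CPM in M + vector. It rose by 1.41-fold without overlap (0.49 ± 0.04, adjusted p = 3.2e-11). Lamtor1, the lysosomal anchor of the Ragulator complex that brings mTORC1 to the lysosome, had 153, 152, 164 and 171 CPM in M + iBRD9, against 113, 111, 121 and 112 CPM in M + vector and rose by 1.40-fold (0.48 ± 0.05, adjusted p = 1.8e-08). Both were named as large or well-supported rises and not as members of the list.

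Within the list the proteases moved in both directions. Ctsd, cathepsin D, rose (0.25 ± 0.04, adjusted p = 3.0e-04), at 3766 ± 238 CPM in M + iBRD9 and 3166 ± 181 CPM in M + vector (SD, n = 4 each). So did Ctsb, cathepsin B (0.15 ± 0.03, adjusted p = 6.9e-04), and Lgmn, the asparaginyl endopeptidase legumain (0.24 ± 0.03, adjusted p = 1.4e-05). Ctss, cathepsin S (-0.15 ± 0.03, adjusted p = 0.0057), Ctsc, cathepsin C (-0.21 ± 0.04, adjusted p = 0.0015), and Psap, the precursor of the saposins (-0.12 ± 0.03, adjusted p = 0.0092), fell. Of the genes whose E-boxes are printed above, Atp6v0b rose (0.26 ± 0.06, adjusted p = 0.0036), with 125, 147, 134 and 132 CPM in M + iBRD9, against 111, 118, 117 and 104 CPM in M + vector. Lamp1 (0.11 ± 0.03, adjusted p = 0.027) and Mcoln1 (0.17 ± 0.05, adjusted p = 0.043) were called, but both calls were lost without any 1 of M + vector replicates 1 to 4 or M + iBRD9 replicate 2, with an adjusted p of up to 0.14 and 0.15. Without the filter on low counts both calls were lost too (adjusted p = 0.058 and 0.054). That of Mcoln1 was also lost under RLE scaling (adjusted p = 0.054) and total-count scaling (adjusted p = 0.051). Of 39 tested autophagy genes 7 rose and none fell. Ulk1, the kinase that starts autophagy, had 68.2, 71.6, 68.2 and 55.2 CPM in M + iBRD9, against 53.8, 54.2, 43.5 and 39.96 CPM in M + vector, without overlap (0.46 ± 0.08, adjusted p = 5.9e-04). The autophagy receptor genes Sqstm1 (0.22 ± 0.04, adjusted p = 1.8e-04) and Calcoco1 (0.32 ± 0.06, adjusted p = 6.4e-04) rose. The conjugation enzyme gene Atg7 rose too (0.20 ± 0.05, adjusted p = 0.009).

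**Figure D3:**
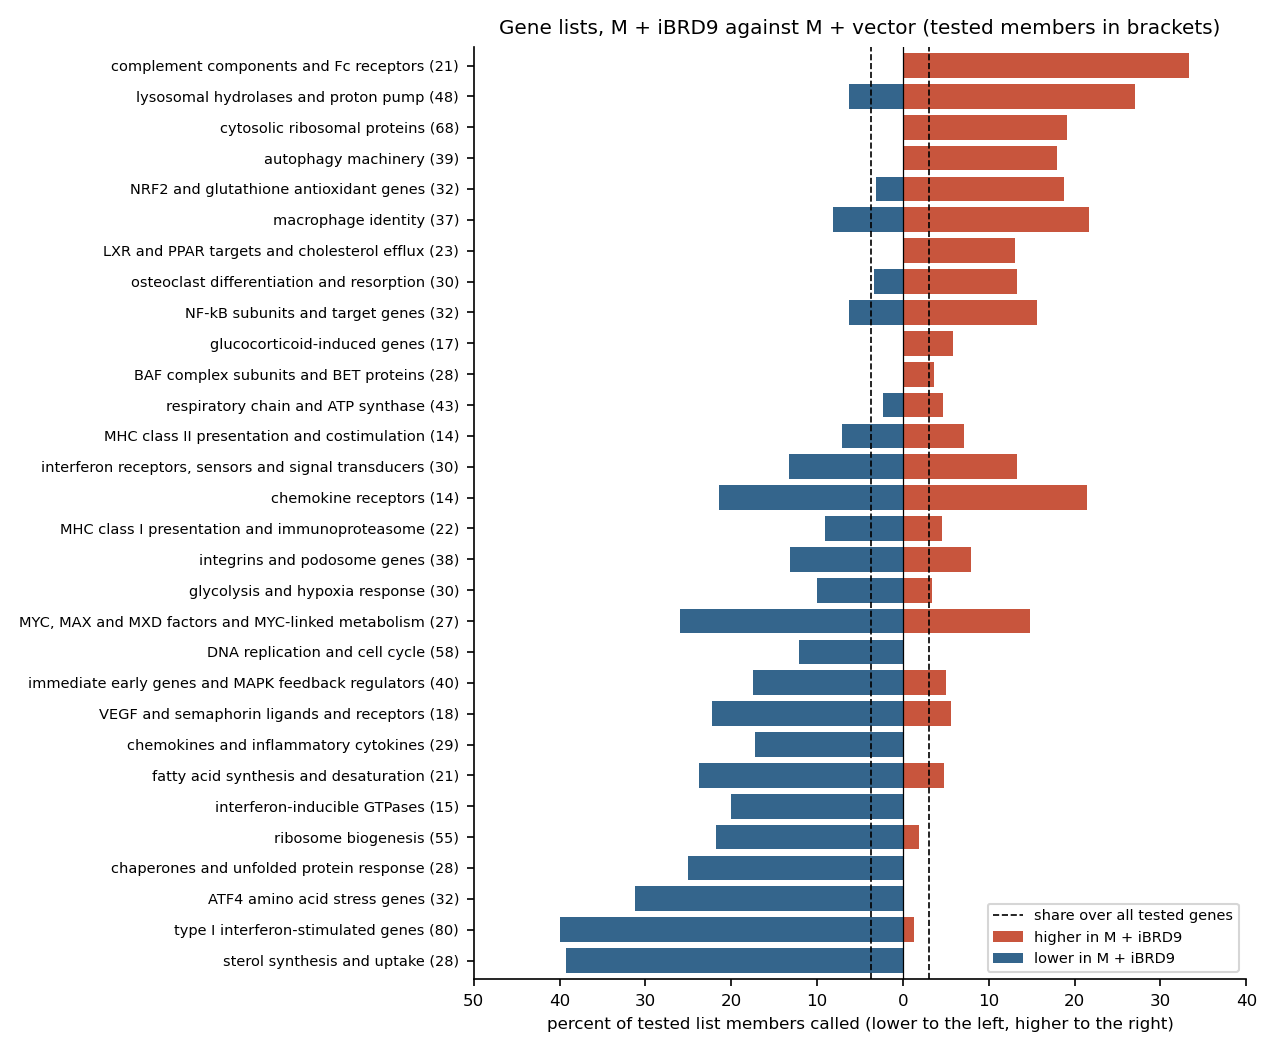
Percent of the tested members of each gene list called higher and called lower in M + iBRD9 relative to M + vector (linear axes from 0). Dashed lines mark the 3.08% of all tested genes called higher and the 3.73% called lower. Of the pathway lists drawn, interferon-stimulated and sterol genes had the largest shares called lower, at 32 of 80 and 11 of 28.

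Ribosomal protein genes rose in a way that hung on single libraries. Of 68 tested, 13 rose and none fell, but 1 or 2 rose without M + vector replicate 1, M + vector replicate 4, M + iBRD9 replicate 2 or M + iBRD9 replicate 3, and 30 without M + iBRD9 replicate 1. DESeq2 called 3, and 8 were called when only the 8 libraries without RANKL were fitted. Rps27 had 73.1, 114, 98.6 and 78.5 CPM in M + iBRD9, against 65.8, 67.9, 69.2 and 57.5 CPM in M + vector, without overlap (0.48 ± 0.10, adjusted p = 0.0026). These are short transcripts, the class in which M + iBRD9 replicates 1 and 4 lay on opposite sides of their group. After the correction for GC content and length, which was added after seeing the data, 13 were called higher. The part of transcript length in these rises was not tested further.

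Genes of osteoclasts are of interest because these cells can become osteoclasts once RANKL is added. Without RANKL, 4 of 30 tested osteoclast genes rose and 1 fell, with a median change of -0.02. These were 13.3% and 3.33% of the list, where 3.08% of all genes rose and 3.73% fell. The count of rises was 2 without M + vector replicates 3 or 4 or M + iBRD9 replicates 2 or 3. The one that fell was Ctsk, the collagen-degrading cathepsin K (ENSMUSG00000028111, chromosome 3, 95406567 to 95416673, GRCm39), a low transcript here with 1.69, 3.93, 3.28 and 2.32 CPM in M + iBRD9, against 4.96, 6.75, 6.53 and 7.23 CPM in M + vector. It fell without overlap by 2.26-fold (-1.18 ± 0.18, adjusted p = 5.5e-05). Mmp9, gelatinase B, rose, with 91.5, 82.0, 99.5 and 90.3 CPM in M + iBRD9, against 71.6, 72.0, 80.6 and 68.3 CPM in M + vector (0.31 ± 0.05, adjusted p = 2.1e-04). Atp6v1b2, the proton pump subunit of macrophages and osteoclasts, rose too (0.19 ± 0.03, adjusted p = 2.7e-04). Nfatc1, the master transcription factor of osteoclasts (0.06 ± 0.06, adjusted p = 0.62), the phosphatase gene Acp5 (0.09 ± 0.09, adjusted p = 0.65) and the fusion gene Dcstamp (-0.35 ± 0.31, adjusted p = 0.58) were not called. Mmp27, another metalloproteinase gene, had 26.9, 30.2, 25.9 and 30.8 CPM in M + iBRD9, against 45.8, 43.5, 37.6 and 45.5 CPM in M + vector and fell (-0.60 ± 0.08, adjusted p = 5.3e-06). Its chromosome 9 neighbours Mmp8 (-0.55 ± 0.09, adjusted p = 2.3e-04) and Mmp12, macrophage elastase (-0.21 ± 0.04, adjusted p = 0.0012), fell, while Mmp13 differed by -0.34 ± 0.12, adjusted p = 0.085. Mmp8 is also a neutrophil marker, a list with 1 of 12 tested called lower and 1 higher, the rise lost in 12 of the 16 fits with a library left out and under both other scalings, and with a summed level of 117.9 to 151.3 CPM in M + iBRD9 and 122.9 to 132.5 CPM in M + vector.

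Of 18 tested VEGF and semaphorin ligands and receptors, 4 fell (22.2%, against 3.73% of all genes) and 1 rose (5.56%, against 3.08%). The median change was 0.03, and 2 rose without M + vector replicate 1 or M + iBRD9 replicate 4. Kdr, the VEGF receptor VEGFR2, had 6.39, 6.403, 5.68 and 5.29 CPM in M + iBRD9, against 10.7, 9.26, 8.73 and 11.1 CPM in M + vector and fell without overlap (-0.74 ± 0.13, adjusted p = 2.9e-04). The coreceptor gene Nrp1 (-0.24 ± 0.04, adjusted p = 6.4e-04) and the semaphorin receptor gene Plxna1 (-0.29 ± 0.04, adjusted p = 5.2e-05) fell, and Sema4d, a semaphorin, rose (0.20 ± 0.04, adjusted p = 0.0026). Kdr is made by endothelium as well, and the part of other cells in its fall was not tested. Of 14 stromal, osteoblast and endothelial markers 6 were tested and 0 called. Their summed level was 19.3 to 24.2 CPM in M + iBRD9 and 20.2 to 25.6 CPM in M + vector.

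Of the remaining large changes, Nt5dc2, of the 5′-nucleotidase domain family (ENSMUSG00000071547, chromosome 14, 30853010 to 30861081, GRCm39), had 284, 305, 311 and 321 CPM in M + iBRD9, against 204, 209, 211 and 206 CPM in M + vector. It rose by 1.47-fold without overlap (0.56 ± 0.04, adjusted p = 1.2e-10). Wfdc17, a secreted whey-acidic-protein family member of macrophages, had 72.6, 99.8, 86.0 and 83.3 CPM in M + iBRD9, against 54.8, 54.5, 51.0 and 61.1 CPM in M + vector and rose (0.63 ± 0.08, adjusted p = 1.9e-06). The filamin-binding adhesion protein gene Fblim1 (0.46 ± 0.04, adjusted p = 1.8e-08) and Pdcd4, an inhibitor of translation (0.57 ± 0.12, adjusted p = 0.0023), rose. Relb, of the non-canonical NF-κB pathway (0.39 ± 0.07, adjusted p = 8.6e-04), and the glycolytic gene Aldoc (0.45 ± 0.06, adjusted p = 4.1e-06) rose too. Bcl2, the inhibitor of apoptosis, had 15.9, 10.7, 15.8 and 16.2 CPM in M + iBRD9, against 19.6, 21.5, 23.5 and 23.8 CPM in M + vector and fell (-0.60 ± 0.11, adjusted p = 5.2e-04).

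Most changes of 2-fold or more were found in genes near the floor of measurement. Among the 5 called higher, Rcor2, a corepressor of the CoREST family, had 1.14, 1.40, 1.11 and 1.40 CPM in M + iBRD9, against 0.409, 0.299, 0.604 and 0.115 CPM in M + vector. Trim7, a ubiquitin ligase, had 3.19, 2.70, 2.34 and 1.51 CPM in M + iBRD9, against 1.17, 1.08, 0.988 and 0.517 CPM in M + vector. Both calls stood whichever library was left out (1.80 ± 0.43, adjusted p = 0.008 and 1.37 ± 0.30, adjusted p = 0.0037). The other 3, 1810024B03Rik, Lat and Frs3, averaged under 1.5 CPM in each group and lost their calls without several libraries, M + vector replicates 2 and 3 among them in each case. Among those called lower, Ccr3, Ly6a and Ctsk are given above, and 4930562C15Rik, Kcnk5 and Enpp6 averaged under 2 CPM and lost their calls without M + vector replicate 3 or M + iBRD9 replicate 3, among others. These low genes were singled out after their values were seen.

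The response with RANKL was set beside this one. The MR + iBRD9 and MR + vector libraries share none with the comparison above. All 16 libraries were fitted together, however, so the 2 comparisons share an estimate of the spread. With RANKL iBRD9 changed 320 genes (2.77%), 83 higher (0.718%) and 237 lower (2.05%), and 199 to 411 as libraries were left out. It was 199 without MR + vector replicate 2, 200 without MR + vector replicate 1, 205 without MR + iBRD9 replicate 4 and 207 without MR + vector replicate 4. Of the 356 genes that rose without RANKL, 31 also rose with it (8.71% of these and 37.3% of those that rose with it) and 5 fell. Of the 431 that fell, 88 also fell with it (20.4% of these and 37.1% of those that fell with it) and 2 rose. A difference in calls is not a difference in response, so the difference itself, the change without RANKL minus the change with it, was tested as an interaction. It was called in 241 genes (2.08%), 125 positive (1.08%) and 116 negative (1.0%), 155 of them among the 787. The count was 73 to 541 as libraries were left out. It was 102 without M + vector replicate 3, 123 without M + iBRD9 replicate 2, 541 without M + iBRD9 replicate 4, 73 without MR + vector replicate 2, 158 without MR + vector replicate 4 and 73 without MR + iBRD9 replicate 4. In all, 64 of the 241 stood in every case, 50 of them among the 787, and the genes named below with a called difference are from these.

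**Figure D4:**
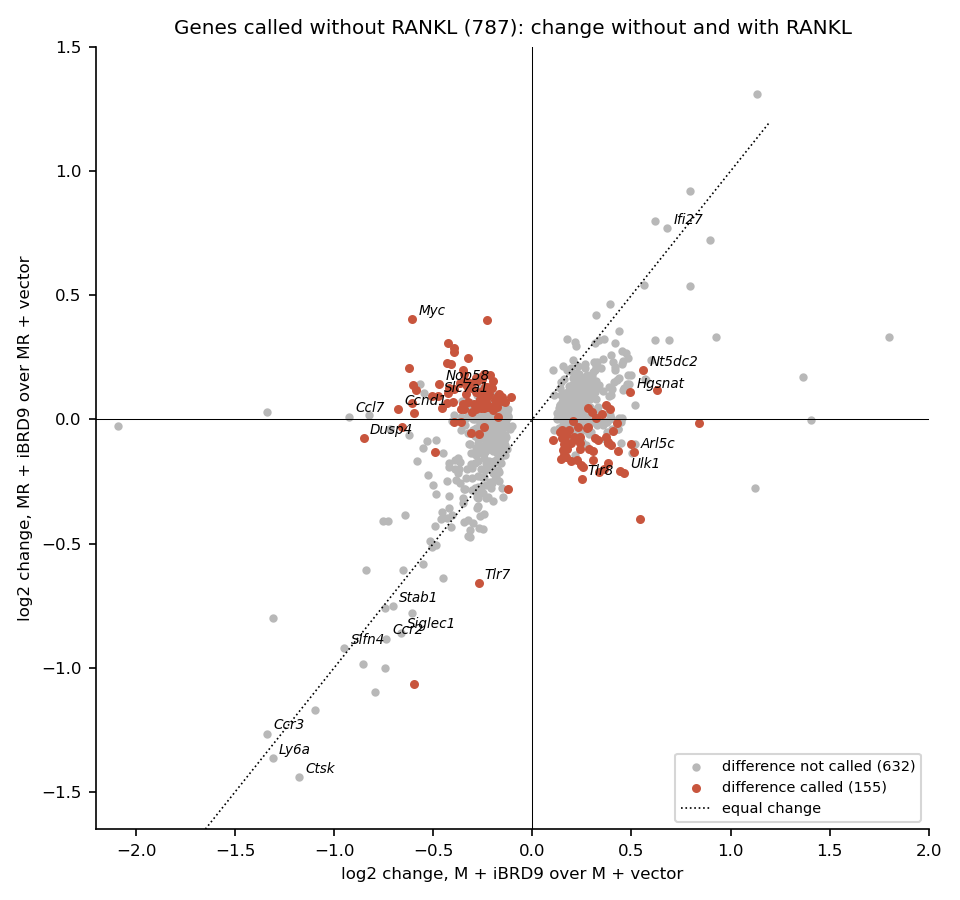
Change with iBRD9 in cells without RANKL (log2, M + iBRD9 minus M + vector) against the change in cells with RANKL (log2, MR + iBRD9 minus MR + vector) for the 787 genes called without RANKL. The 155 genes whose difference between the 2 changes was called lie away from the diagonal and the other 632 are drawn in grey.

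Ccr2 and the interferon-stimulated genes had like values in both settings. Ccr2 changed by -0.88 ± 0.10, adjusted p = 1.7e-07 with RANKL, at 12.3 ± 1.30 CPM in MR + iBRD9 and 22.8 ± 2.46 CPM in MR + vector (SD, n = 4 each), a difference in response of 0.14 ± 0.12, adjusted p = 0.68. Stab1 changed by -0.75 ± 0.05, adjusted p = 1.0e-12, Slfn4 by -0.92 ± 0.08, adjusted p = 6.6e-10 and Ifi27 by 0.77 ± 0.06, adjusted p = 4.7e-10. None of their differences was called. Of the 80 interferon-stimulated genes 45 fell and 1 rose with RANKL, and the difference was called in 1 of them. A difference that misses the threshold does not show that the responses were alike.

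Several growth genes fell by more without RANKL. Dusp4 changed by -0.08 ± 0.08, adjusted p = 0.76 with RANKL, at 43.3 ± 3.50 CPM in MR + iBRD9 and 45.6 ± 4.87 CPM in MR + vector (SD, n = 4 each), and the difference in response was -0.78 ± 0.12, adjusted p = 5.6e-04. Ccnd1 changed by 0.04 ± 0.10, adjusted p = 0.92 with RANKL (difference -0.72 ± 0.14, adjusted p = 0.0067). Ets2 changed by 0.07 ± 0.10, adjusted p = 0.85 (difference -0.68 ± 0.15, adjusted p = 0.012, and adjusted p = 0.057 in DESeq2). Myc changed by 0.40 ± 0.13, adjusted p = 0.092 (difference -1.01 ± 0.21, adjusted p = 0.0097). Of 55 ribosome biogenesis genes the difference was negative and called in 13, none positive, and 1 rose and none fell with RANKL. Nop58 (difference -0.61 ± 0.09, adjusted p = 3.4e-04), Nop2 (-0.50 ± 0.10, adjusted p = 0.0062), Polr1a (-0.43 ± 0.09, adjusted p = 0.0067) and Ddx21 (-0.35 ± 0.07, adjusted p = 0.011) were among them. So were Slc7a1 (-0.57 ± 0.08, adjusted p = 1.8e-04), Ppat (-0.43 ± 0.09, adjusted p = 0.01), Hells (-0.49 ± 0.10, adjusted p = 0.0067) and Hspd1 (-0.37 ± 0.07, adjusted p = 0.0067) outside that list. Of the 28 sterol genes none was called with RANKL, and the difference was negative and called in 3.

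Several macrophage and lysosomal genes rose by more without RANKL. Of 37 macrophage identity genes, 2 rose and 14 fell with RANKL, and the difference was positive and called in 9 and negative in 1. Csf1r changed by -0.08 ± 0.03, adjusted p = 0.18 with RANKL (difference 0.25 ± 0.04, adjusted p = 0.0029) and C1qa by -0.03 ± 0.05, adjusted p = 0.83 (difference 0.31 ± 0.06, adjusted p = 0.0093). Hgsnat changed by 0.11 ± 0.04, adjusted p = 0.11 with RANKL (difference 0.38 ± 0.05, adjusted p = 9.9e-05). Ulk1 changed by -0.21 ± 0.09, adjusted p = 0.24 (difference 0.67 ± 0.12, adjusted p = 0.0029). For Lgmn the change with RANKL was -0.07 ± 0.03, adjusted p = 0.34 (difference 0.31 ± 0.05, adjusted p = 3.4e-04), for Slc40a1 0.01 ± 0.05, adjusted p = 0.97 (difference 0.32 ± 0.06, adjusted p = 0.0067). Zfp36 changed by 0.06 ± 0.05, adjusted p = 0.70 (difference 0.32 ± 0.07, adjusted p = 0.018). Nt5dc2 rose in both settings, and by more without RANKL (difference 0.36 ± 0.06, adjusted p = 0.0019).

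A few genes changed in opposite directions. Tlr8 had 89.9, 91.9, 78.3 and 84.2 CPM in MR + iBRD9, against 107, 108, 89.9 and 101 CPM in MR + vector, a change of -0.24 ± 0.06, adjusted p = 0.016 (difference 0.49 ± 0.08, adjusted p = 9.0e-04), where without RANKL it rose. Selenop likewise fell there (-0.21 ± 0.05, adjusted p = 0.011), and its responses differed by 0.55 ± 0.07, adjusted p = 4.6e-05. Wwp1, a HECT ubiquitin ligase, rose without RANKL (0.22 ± 0.04, adjusted p = 7.3e-04) and fell with it (-0.16 ± 0.04, adjusted p = 0.029). Its responses differed by 0.39 ± 0.06, adjusted p = 3.6e-04. The falls with RANKL of these 3 were each lost without MR + vector replicate 2, among other libraries, and the differences were not. Sat1 (difference 0.32 ± 0.06, adjusted p = 0.0034) and Rassf4 (difference 0.31 ± 0.06, adjusted p = 0.0093) complete the 5 called higher without and lower with RANKL. Their rises without RANKL were lost without M + vector replicate 3, and their falls with RANKL without MR + vector replicate 2, among other libraries. The rise of Rassf4 was also lost under RLE and total-count scaling (adjusted p = 0.058 in each) and in DESeq2 (adjusted p = 0.052). In the other direction, Mmp12 rose with RANKL (0.18 ± 0.04, adjusted p = 0.01), a call lost without MR + vector replicate 2, and differed in response by -0.39 ± 0.06, adjusted p = 3.4e-04. Hmga2, a chromatin protein of growing cells, did so too (0.40 ± 0.07, adjusted p = 3.5e-04 with RANKL, difference -0.63 ± 0.09, adjusted p = 3.4e-04). Its fall without RANKL (-0.23 ± 0.07, adjusted p = 0.033) was lost without M + vector replicate 3, M + vector replicate 4 or M + iBRD9 replicate 2. Tlr7 fell in both settings, and by more with RANKL (-0.66 ± 0.05, adjusted p = 8.5e-11, difference 0.39 ± 0.07, adjusted p = 0.0029).

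**Figure D5:**
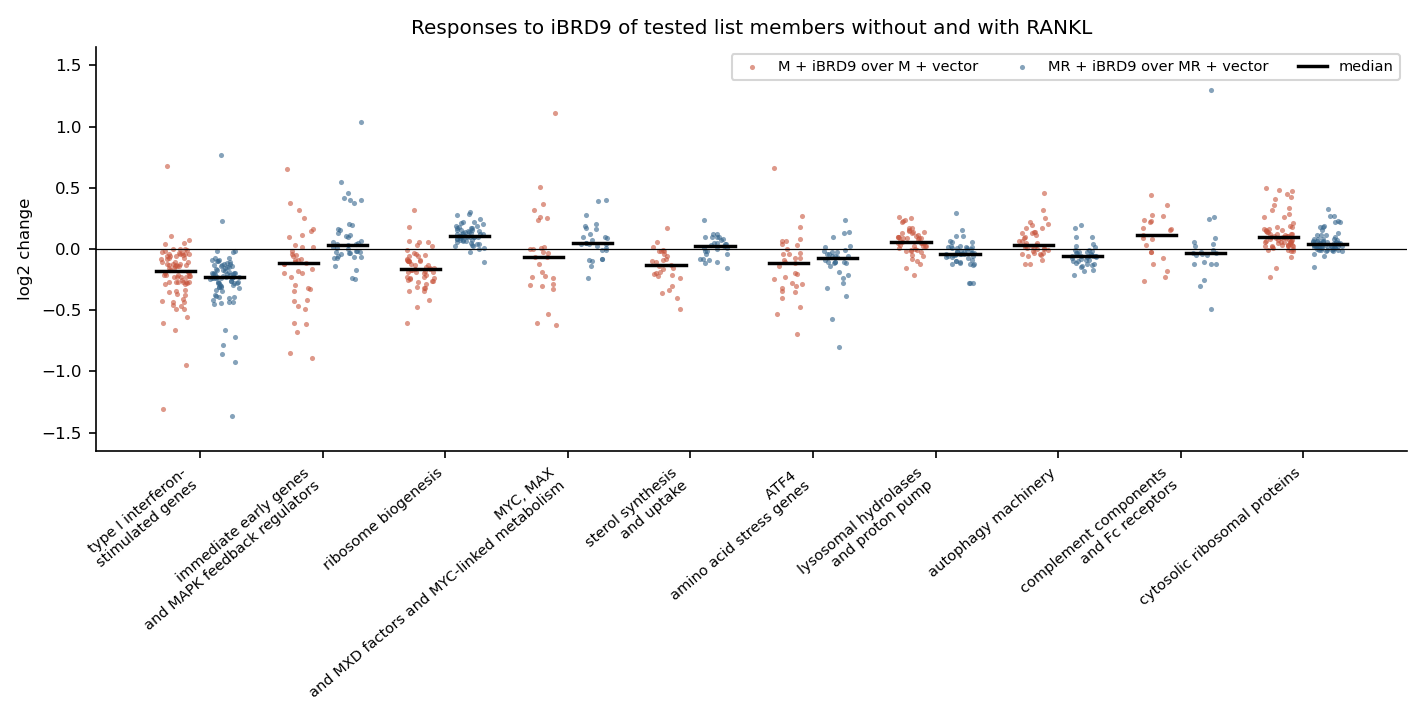
Change with iBRD9 (log2) of every tested member of 10 gene lists, without RANKL (left in each pair) and with RANKL (right), with the median as a line. Medians of ribosome biogenesis (-0.16 and 0.11), immediate early and MAPK feedback (-0.12 and 0.04) and lysosomal genes (0.06 and -0.04) had opposite signs in the 2 settings. So did those of sterol (-0.13 and 0.03), MYC network (-0.06 and 0.05), autophagy (0.04 and -0.05) and complement and Fc receptor genes (0.11 and -0.04). The medians of interferon-stimulated genes (-0.18 and -0.23) and ATF4 amino acid stress genes (-0.11 and -0.08) were negative in both. That of cytosolic ribosomal protein genes was positive in both (0.09 and 0.04).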

How the data were processed

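Before deposit, the authors used Cutadapt for trimming, HISAT2 for alignment to GRCm39 and HTSeq for counting per gene. The deposited read counts, without normalization, were used for every test. The deposited table also holds FPKM values, which the authors computed from those counts and which were not tested. The strand setting and the annotation release are not given in the sources used here, so reads of overlapping or antisense genes may be mixed, and close copies (the Ccr, Slfn, Oas, Ifi200, Ly6, C1q, Tgtp and H2 genes) are uncertain. Of 21898 genes listed 15697 had a count, and 42 rows shared a symbol with another row.

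The 16 libraries were fitted together, 1 mean for each group, in edgeR 4.0.16 (R 4.3.3), with TMM scaling and filterByExpr, which kept 11559 genes and took out 10339, with 12 residual degrees of freedom. P-values were adjusted by Benjamini-Hochberg over all genes tested and genes were called below 0.05. CPM values were computed from counts with the TMM factors, and SD is over 4 libraries. Depths were 15372775 to 18987926 counts a library, and no pair of libraries of a group agreed within counting error. Alternatives were RLE and total-count scaling, no filter, DESeq2 1.42.0, a replicate block, only the 8 libraries without RANKL, and each library left out. Corrections for GC content and length (natural splines of 4 degrees of freedom each) were added after seeing the data.

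Members and the 40 gene lists (30 pathways, 10 marker sets) were chosen with earlier results of these data known. Named genes are the 15 largest rises and 15 largest falls of at least 5 CPM without overlap, Gm and Rik names left out, from each list the 2 genes of smallest p among those that rose and among those that fell, 24 genes fixed by name, and the 8 largest differences in each direction (at least 5 CPM in 1 group, overlap allowed). The text leaves some out, and a few genes are not reported here. A further 85 genes were added after their values had been seen.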

Additional observations from a re-analysis of the deposited data

Results flagged for a closer look

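Within the 290 groups of 4 libraries of the named genes without RANKL, 12 had 1 library far from the other 3, where chance alone sets about 1 in 20 groups apart. Of these, 6 were M + iBRD9 replicate 2. It lay low for Bcl2 (10.7 CPM), Elovl6 (22.2 CPM) and Hmga2 (104.1 CPM) and high for Bst2 (270.1 CPM), Csf1r (1760 CPM) and Stat2 (170.6 CPM). M + iBRD9 replicate 4 lay high for Nop58 (39.5 CPM). M + vector replicate 1 lay low for Sqle (161.9 CPM) and Tnf (10.98 CPM), M + vector replicate 2 was apart for Txnrd1 (514.4 CPM) and M + vector replicate 4 for Nfatc1 (58.9 CPM) and Nrp1 (423.6 CPM).

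The response to iBRD9 differed between cells without and with RANKL, by the interaction test of edgeR, for 48 genes named in the text, and 30 of these stood whichever library was left out. On the log2 scale, without minus with RANKL, the negative differences that stood were Myc (-1.01), Dusp4 (-0.78), Ccnd1 (-0.72), Ets2 (-0.68), Hmga2 (-0.63), Nop58 (-0.61), Slc7a1 (-0.57), Nop2 (-0.50), Hells (-0.49), Polr1a (-0.43), Ppat (-0.43), Mmp12 (-0.39), Hspd1 (-0.37) and Ddx21 (-0.35). The positive ones that stood were Ulk1 (0.67), Selenop (0.55), Tlr8 (0.49), Calcoco1 (0.39), Wwp1 (0.39), Tlr7 (0.39), Hgsnat (0.38), Nt5dc2 (0.36), Sat1 (0.32), Slc40a1 (0.32), Zfp36 (0.32), Lgmn (0.31), C1qa (0.31), Rassf4 (0.31), Csf1r (0.25) and Ctsb (0.19). The other 18 were lost without MR + iBRD9 replicate 4, and most without other libraries too. They were Ctps (-0.83), Tnf (-0.78), Tsr1 (-0.74), Bcl2 (-0.62), Spred2 (-0.55), Etv5 (-0.54), Gnl3 (-0.46), Elovl6 (-0.44), Cad (-0.40), Aldh18a1 (-0.39), Mcm2 (-0.30), Tfrc (-0.28), Hmgcs1 (-0.26), Txnrd1 (-0.23), Wfdc17 (0.51), Mmp27 (0.47), Relb (0.35) and Psap (0.16).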

How the results depend on the processing

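The count of 787 genes called without RANKL was 789 to 1078 under the other scalings, tools, filter and corrections and 452 when only the 8 libraries without RANKL were fitted, 451 of them among the 787. It was 463 to 1104 as libraries were left out. The 320 genes called with RANKL became 199 to 411 as libraries were left out, and the 241 called for the difference 73 to 541. The difference was called in 388 genes without the filter on low counts, 370 after correction for GC content and length, 421 with the replicate number as a block and 581 with that block and the correction together. The corrections were chosen after seeing the data. Pairing of libraries by replicate number is not described. Deviations of same-numbered libraries correlated at 0.05, 0.01, 0.04 and 0.14 without RANKL and at 0.01, 0.01, 0.03 and 0.00 with it. Those of other pairs without RANKL ran from -0.10 to 0.07, below the value of replicate 4, and pairing was not tested further. Fitted as a block, the numbers gave 1025 calls without RANKL, the 787 among them, and 417 with it. Of 133 called genes named in the text, 114 stood whichever library was left out, 131 after correction for GC content and length, 128 in DESeq2 and 120 when only the 8 libraries without RANKL were fitted, and none turned its direction. In that last fit 1 was not tested and 12 were lost, Bst2, Frs3, Hmga2, Lamp1, Lat, Mcoln1, Mnt, Mxi1, Psap, Rassf4, Tnfaip3 and Tnip3. It gave 5 rises of macrophage identity, 7 of lysosomal, 2 of NRF2, 3 of NF-κB and 1 of MYC network genes, and falls of 3 chemokine, 4 cell cycle, 3 chaperone and 1 podosome genes. Without the filter on low counts 8 chemokine, 5 chemokine receptor, 11 MYC network and 11 cell cycle genes fell. DESeq2 gave 12 falls of cell cycle genes, and the correction for GC content and length 6 of glycolysis genes. Ribosomal protein genes called higher were 3 in DESeq2 and 21 with the replicate block. The small change of Brd9 turned to 0.0028 after the correction and 0.003 with the block added, and to 0.0021 without M + vector replicate 1 and 0.0078 without M + iBRD9 replicate 3, within a range of -0.0438 to 0.0078 as libraries were left out. That of Fyco1 turned to -0.0013 without M + vector replicate 2, within a range of -0.0013 to 0.0662. The cause of these shifts was not tested. Few counts lie behind a gene of a few CPM, which limits what can be said of Ccr3, Ctsk, Ly6a, Rcor2 and Trim7.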

Other observations

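The counts of further gene groups without RANKL stand beside the 3.08% of all tested genes called higher and the 3.73% called lower. Of 32 tested NRF2 and glutathione genes 6 rose and 1 fell, and 2 or 3 rose without M + vector replicate 2 or 4, M + iBRD9 replicate 3 or 4, or MR + iBRD9 replicate 1, 2 or 4, while 3 fell without M + iBRD9 replicate 4. G6pdx, which opens the pentose phosphate pathway, rose (0.18 ± 0.04, adjusted p = 0.0076) and the thioredoxin reductase gene Txnrd1 fell (-0.18 ± 0.04, adjusted p = 0.008). Of 30 tested glycolysis and hypoxia genes 3 fell and 1 rose, with 7 falls without M + iBRD9 replicate 4 and 2 rises without M + iBRD9 replicate 1 or 4. The kinase genes Hk2 (-0.28 ± 0.07, adjusted p = 0.012) and Pfkp (-0.22 ± 0.04, adjusted p = 0.0015) fell, while the aldolase gene Aldoc rose. Of 43 tested genes of the respiratory chain and ATP synthase 2 rose and 1 fell, and of 38 tested integrin and podosome genes 3 rose and 5 fell. Of the respiratory chain genes 9 rose without M + iBRD9 replicate 1, 4 without MR + iBRD9 replicate 3, 1 without M + vector replicate 3 or M + iBRD9 replicate 3, and none without M + vector replicate 1, M + vector replicate 4 or M + iBRD9 replicate 2. The fall was lost without M + vector replicate 4 or M + iBRD9 replicate 1, 2 or 3. Of the podosome genes 1 rose without any 1 of the M + vector libraries or M + iBRD9 replicate 2 or 3, and 1 fell without M + iBRD9 replicate 2, 2 without M + vector replicate 4 and 3 without M + iBRD9 replicate 3, MR + vector replicate 3 or 4, or MR + iBRD9 replicate 1 or 2. Cd82, a tetraspanin (0.23 ± 0.05, adjusted p = 0.0034), rose and the integrin gene Itga6 (-0.17 ± 0.04, adjusted p = 0.0085) fell. Of 32 tested NF-κB genes 5 rose and 2 fell, and 3 rose without M + vector replicate 4, M + iBRD9 replicate 2 or M + iBRD9 replicate 3, and 8 without M + iBRD9 replicate 4. Neither fall, of Tnfaip3 and Tnip3, stood without M + vector replicates 3 or 4 or M + iBRD9 replicates 1 or 2, and 1 was lost without M + vector replicate 1. MHC class I genes gave 1 rise and 2 falls among 22 tested. None rose without any 1 of the M + vector libraries or M + iBRD9 replicate 2 or 3, 3 rose without M + iBRD9 replicate 4, and 1 fell without M + vector replicate 3 or 4 or M + iBRD9 replicate 3. Class II genes gave 1 rise and 1 fall among 14 tested, with no rise without M + vector replicate 4 or M + iBRD9 replicate 3 and 2 without M + iBRD9 replicate 4.

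Markers of other cells were low. B cell markers summed to 2.30 to 3.84 CPM in M + iBRD9 and 2.35 to 3.83 CPM in M + vector, and Igll1 had no count. T and NK cell markers summed to 133.6 to 147.7 CPM in M + iBRD9 and 155.6 to 173.4 CPM in M + vector, most of it Il7r, which fell (-0.20 ± 0.04, adjusted p = 0.0037), with 8 of 14 at 0, the Cd3 genes among them. Dendritic markers summed to 243.4 to 322.3 CPM in M + iBRD9 and 301.4 to 343.1 CPM in M + vector, and Bst2, an interferon-stimulated gene, was the 1 of 5 tested that fell (-0.27 ± 0.07, adjusted p = 0.02). That call was lost without M + vector replicate 4, M + iBRD9 replicate 1 or M + iBRD9 replicate 3, with an adjusted p of up to 0.099, and in DESeq2.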
